A study of Mus musculus with 6 samples.

Results

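Interferon-stimulated genes and genes of MHC class I antigen presentation were followed in sorted lung epithelial cells of Miwi2tdTomato mice. The set was a list of gene symbols matched to the deposited count tables, 29 interferon-stimulated genes and 9 genes of class I presentation. The RNA sensor RIG-I was counted under its older symbol, Ddx58. All 38 symbols were present among 48577 genes, and each had a read in at least 1 library. Of these, 28 passed the filter on low counts, among 13175 genes tested in all.

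The mice were C57BL/6 and carried tdTomato as a reporter of Piwil4, the gene of the Piwi protein MIWI2. Dissociated lungs were sorted for cells without CD45, a leukocyte surface protein, and with EpCAM, an epithelial one. The EpCAM-positive cells were then split into a tdTomato-negative and a tdTomato-positive fraction. Each of 3 mice gave 1 library of each fraction, so there were 3 libraries per group and every positive library had a negative partner from the same animal. The labels call both fractions multiciliated cells, but no cilia marker is named in the sort. Both fractions therefore share the reporter allele, the strain and the same 3 animals. No infection or interferon treatment is mentioned in the labels, and age, sex and copy number of the reporter allele are not given in the sources used here.

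Interferons are secreted proteins that bind receptors coupled to the kinases JAK1, TYK2 and JAK2. Type I and type III interferons act through a complex that holds STAT2 and IRF9 and binds the interferon-stimulated response element (ISRE) in promoters of its target genes. The products of these genes bind viral RNA, block viral entry, assembly or translation, and feed back on the pathway itself. MHC class I molecules, a heavy chain paired with beta-2-microglobulin, show peptides from inside the cell to CD8 T cells. The peptides are cut by proteasomes, carried into the endoplasmic reticulum by the TAP transporter and loaded with the help of tapasin. Airway epithelium expresses many of these genes at a basal level and raises them when it meets a virus.

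Promoter sequences were matched to the members to show the element that the interferon-activated complex recognizes. The RefSeq promoter table (GRCm38.p6) matched 30 of the 38 members. Its 250 bases before each start were searched for the ISRE core, GAAANNGAAA on 1 strand and TTTCNNTTTC on the other, with overlapping matches counted. A match was present for 13 of the 30 members (43.3%) and for 936 of all 27025 genes in the table (3.46%). The 13 were B2m, Bst2, Cxcl10, Gbp2, Gbp3, Ifit1, Ifit3, Isg15, Oas1a, Oas3, Rsad2, Stat2 and Trim30a. The core of the gamma-activated site, TTCNNNGAA, which reads the same on both strands, was present for 5 of 30 members (16.7%) and for 2197 genes (8.13%). Those 5 were Bst2, Ifit2, Irf1, Oas1a and Psmb8. A match is a run of letters and does not show that a factor bound there in these cells. The search took these exact letters only, so a missing match does not show that a promoter lacks the element.

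The 150 bases before the RefSeq start are shown, 5′ to 3′ on the strand of the gene, for 4 members. All 4 have a match there and differ in level in these libraries. Members without a match, such as H2-K1 and H2-D1, are not shown. ISRE core matches are in capitals. B2m lies on the plus strand (chr2:122147537-122147686), Isg15 on the minus strand (chr4:156200819-156200968), Ifit1 on the plus strand (chr19:34640739-34640888) and Rsad2 on the minus strand (chr12:26456453-26456602).
B2m: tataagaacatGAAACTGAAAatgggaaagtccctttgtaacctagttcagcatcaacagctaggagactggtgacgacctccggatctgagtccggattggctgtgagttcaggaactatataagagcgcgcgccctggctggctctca
Isg15: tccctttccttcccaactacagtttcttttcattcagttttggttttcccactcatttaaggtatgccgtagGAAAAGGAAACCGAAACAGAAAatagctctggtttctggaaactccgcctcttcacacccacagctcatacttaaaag
Ifit1: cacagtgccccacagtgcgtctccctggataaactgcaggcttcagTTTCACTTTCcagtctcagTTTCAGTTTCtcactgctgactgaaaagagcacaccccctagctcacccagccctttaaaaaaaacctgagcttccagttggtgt
Rsad2: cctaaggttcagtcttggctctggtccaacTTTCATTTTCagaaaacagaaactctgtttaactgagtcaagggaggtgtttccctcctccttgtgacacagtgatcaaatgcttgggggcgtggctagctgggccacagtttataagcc
Counted back from the start, the match of B2m began at position -139 and that of Rsad2 at -120. Ifit1 had matches that began at -104 and -85. Isg15 had 3 overlapping matches that began at -78, -72 and -66 and form 1 unbroken run. Isg15, with 3 matches, had between 0 and 4 reads in each library, and B2m, with 1 match in these 150 bases, had between 525 and 1655.

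Reads in genes ranged from 5330584 to 6326395 per library, so that 3 reads, the limit that a count of 0 allows, stood for 0.475 to 0.585 CPM (reads scaled to a common library size with TMM factors). The reporter checked the sort. The tdTomato row held 0 reads in each negative library and 16 to 37 in each positive one, and Piwil4 was at 30.0 to 45.6 against 95.7 to 111 CPM. On the first principal component the positive library of mouse 1 lay far from the rest, at 79.4 against -35.2 to 7.80. Multiciliated markers were present in all libraries (10 genes, summed 7110 to 7540 CPM in negative and 7870 to 8840 in positive libraries). Alveolar type 2 markers summed to 4630 to 5410 CPM in negative and 321 to 897 in positive libraries (10 genes), and club cell markers to 4860 to 8250 and 8560 to 21800 (7 genes). RNA of other epithelial cell types was thus abundant in libraries labelled as multiciliated cells. The planned leukocyte markers, with Lyz2, summed to 1810 to 3390 CPM in negative and 281 to 404 in positive libraries (12 genes). Lyz2, which alveolar type 2 cells also express, was left out after the values were seen. Without it the sum was 13.5 to 123 CPM in negative and 16.7 to 46.7 in positive libraries (11 genes). In bulk samples such as these, fewer cells of a type and less RNA per cell cannot be told apart.

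Most interferon-stimulated genes had reads above the limit that a count of 0 allows in both fractions, with exceptions such as Isg15 and Oas3, and none of the 28 tested members was called between the fractions in the edgeR model without a term for the mouse. At an adjusted p under 0.05, that model called 0 of the 28 members, beside 0.622% of all tested genes (82 of 13175). DESeq2 and limma-voom without a mouse term also called 0 members. At an unadjusted p under 0.05, edgeR counted 1 member, Gbp2 (3.57%), beside 1408 of all tested genes (10.7%). The 28 log2 fold changes, positive over negative, ran from -2.19 to 0.88, with 14 above and 14 below 0. Their median was 0.03, and that of all tested genes was also 0.03.

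With the mouse as a block, edgeR called 1 of 28 members, B2m, which is 3.57% beside 3.15% of all tested genes (415 of 13175). DESeq2 with the same block also called B2m alone, beside 3.52% of all tested genes. The share of members called was therefore close to the background in both. The unadjusted p of the blocked edgeR model was under 0.05 for 2 members (7.14%), Gbp2 and B2m, beside 2100 of all tested genes (15.9%).

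The libraries of the groups did not overlap for few members. CPM was higher in all positive than in all negative libraries for Mx2 and Xaf1, 2 of 28 (7.14%), beside 8.29% of all tested genes. CPM was lower in all positive libraries for Gbp2, 1 of 28 (3.57%), beside 9.02% of all tested genes. With only 2 and 1 members, these counts do not set the members apart from all tested genes. Within mice, 16, 17 and 14 of the 28 members were higher in the positive fraction of mouse 1, 2 and 3. The median log2 differences of the members were 0.21, 0.07 and -0.08 in the same order, so the members as a group took no single direction across the animals. The direction was the same in all 3 mice for 10 members (35.7%), 7 up and 3 down, beside 38.7% of all tested genes.

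The precision varied with the level. In edgeR without a mouse term, the 95% interval of the fold change lay inside 2-fold either way for 12 of the 28 members. That is 42.9%, beside 42.6% of all tested genes. The 12 were Ifit1, Oasl2, Mx2, Rsad2, Usp18, Stat2, Irf1, Irf9, Rtp4, H2-K1, H2-D1 and Ddx58. For the other 16, the interval reached a difference of 2-fold or more. The median width of the interval over the 28 was 1.67 on the log2 scale. With the mouse as a block, the intervals of Ifih1 (-0.96 to 0.13) and Tapbp (-0.32 to 0.98) also lay inside 2-fold. Another 10 members were too low to test, with between 0 and 20 reads in any library: Isg15, Oas1a, Oas3, Mx1, Bst2, Gbp3, Zbp1, Psmb8, Psmb9 and Nlrc5.

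**Figure D1:**
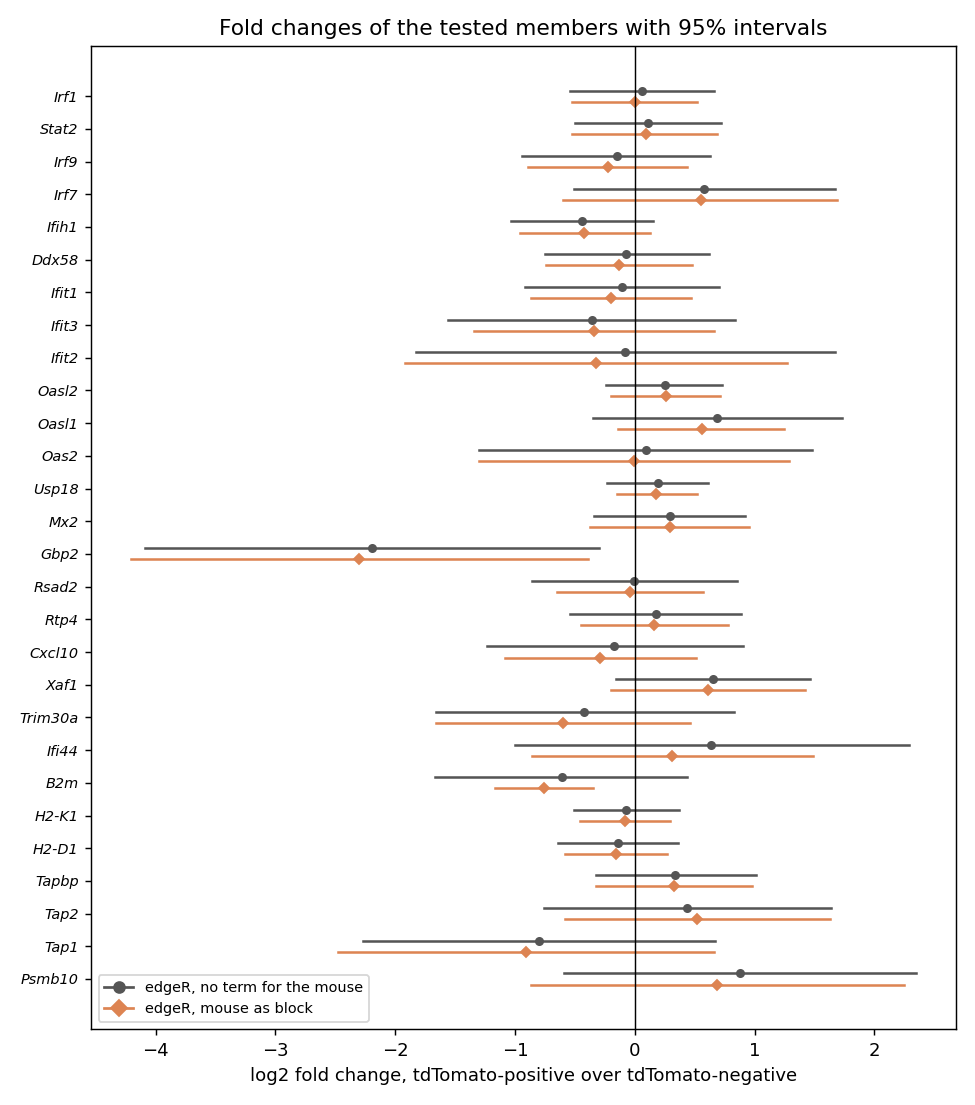
Log2 fold changes of the 28 tested genes, tdTomato-positive over tdTomato-negative, from edgeR without a mouse term (circles) and with the mouse as a block (diamonds); bars are 95% intervals. Most intervals cross 0, and that of B2m lies below 0 only in the blocked model.

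Per kilobase of exon, the members spanned several orders of magnitude, and the order was led by the same genes in both fractions. B2m was highest, at 288 ± 79.7 CPM per kilobase in negative and 188 ± 121 in positive libraries (SD, n = 3 each). Usp18 came next at 37.1 ± 4.70 and 42.4 ± 8.09, followed by H2-K1 at 33.7 ± 3.88 and 32.1 ± 6.95 and H2-D1 at 33.4 ± 5.67 and 30.3 ± 7.74. The levels of Usp18, H2-K1 and H2-D1 lay within the spread of each other in the negative libraries. Irf1 (8.33 ± 0.397 and 8.67 ± 3.05), Rtp4 (7.99 ± 2.06 and 9.04 ± 2.93), Ifit1 (6.69 ± 1.16 and 6.21 ± 3.28) and Oasl2 (5.95 ± 1.17 and 7.05 ± 0.628) came next. Of these, Irf1 lay further from Ifit1 and from Oasl2 than their spread in the negative libraries. Isg15 was at 0.510 ± 0.438 and 0.293 ± 0.343 CPM per kilobase, rank 30 and 34 of 38, and Oas3 was lowest.

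**Figure D2:**
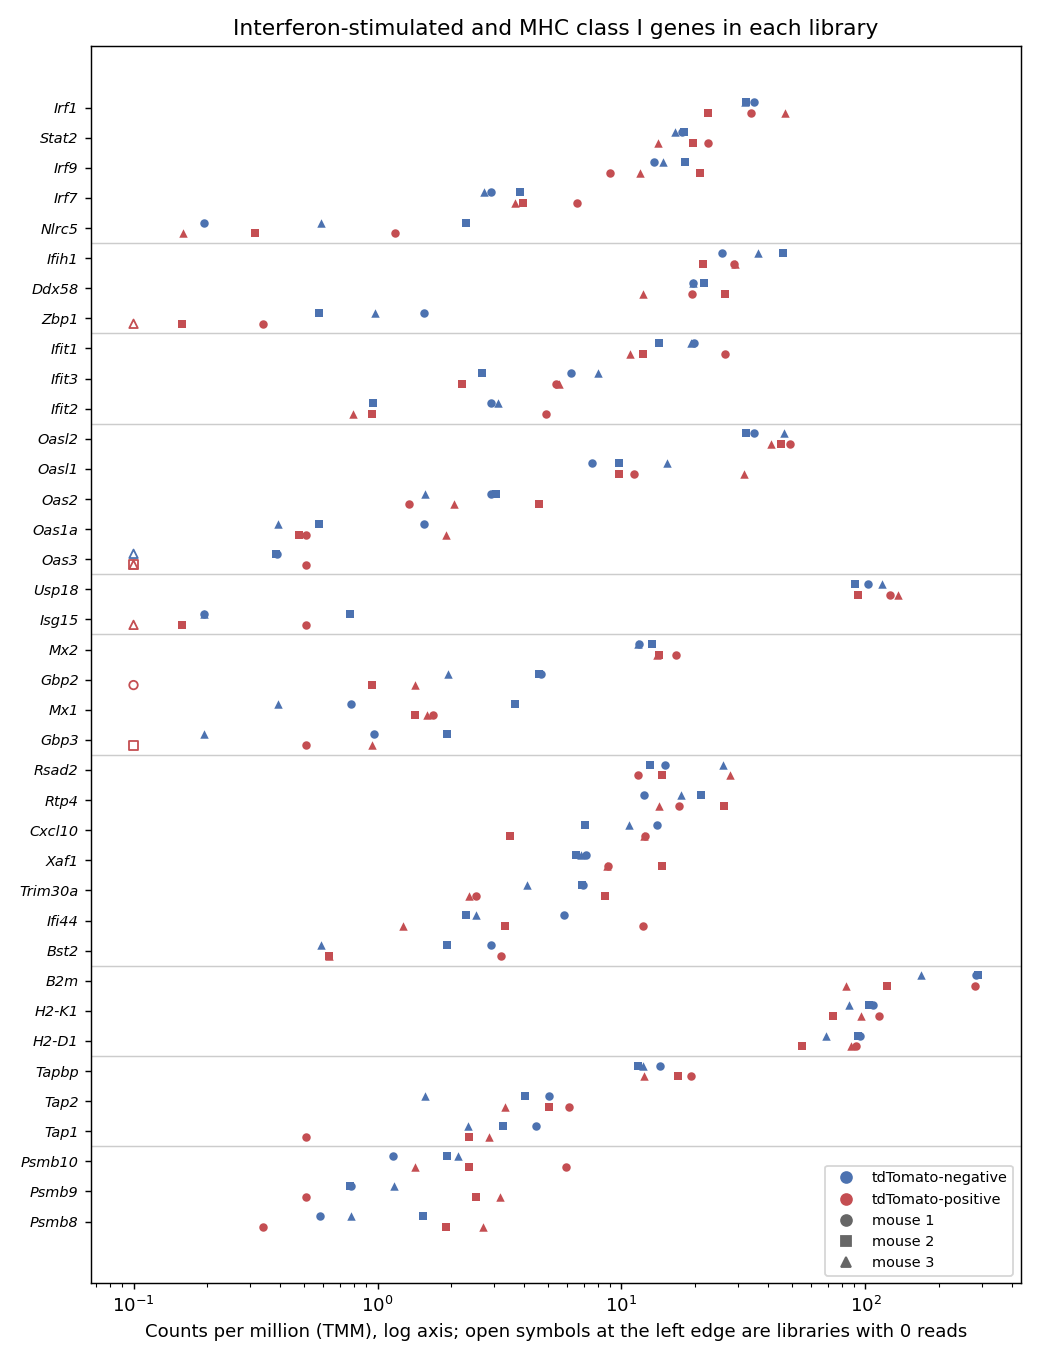
CPM (TMM-scaled, log axis) of all 38 genes in each library, grouped by role; blue is tdTomato-negative, red tdTomato-positive, and symbols mark the mouse. Open symbols at the left edge are libraries with 0 reads; B2m, Usp18, H2-K1 and H2-D1 lie at the right, and the colours are mixed for most genes.

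Interferon transcripts were close to absent among the counted reads, which leave out reads aligned to several places. Of 21 interferon genes, 13 had no read in any library and 1 passed the filter. That one was Ifnk, which encodes interferon kappa, an epithelial type I interferon. Its level was 3.69, 5.38 and 5.46 CPM in negative and 2.36, 3.64 and 2.06 CPM in positive libraries of mice 1, 2 and 3. The groups did not overlap, but the edgeR log2 fold change of -0.84 ± 0.502 (SE) had an adjusted p of 0.584. The other 7 interferon genes with a read, Ifnb1 and Ifng among them, had at most 2 in a library, under the limit that a count of 0 allows.

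Receptor and kinase genes were present in both fractions. Of 12 listed, 11 were tested, and edgeR called none in either model; their median log2 fold change was 0.31, beside 0.03 for all genes. Jak2 was at 187, 164 and 262 CPM in negative and 182, 163 and 226 in positive libraries, with mouse 3 highest in each fraction. Jak1, the kinase that the interferon receptors share, was at 87.7 ± 7.09 and 85.3 ± 13.7 CPM. The level of Ifngr1, a chain of the interferon gamma receptor, was 48.2 ± 8.46 and 48.4 ± 14.8 CPM. For these 3 genes the groups overlapped. CPM was higher in all positive libraries for 3 of the 11 (27.3%), beside 8.29% of all tested genes, and lower in all of them for none. These were Ifnar1, a chain of the type I receptor, Ifngr2, a chain of the interferon gamma receptor, and Tyk2, named after their values were seen. Tyk2 was at 12.8, 12.3 and 12.3 CPM in negative and 19.8, 26.1 and 14.5 in positive libraries, with a log2 fold change of 0.69 and an edgeR adjusted p of 0.451. The log2 fold changes of Ifnar1 and Ifngr2 were 0.44 and 0.37, with edgeR adjusted p at 0.558 and 0.700.

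Of the genes that lead from RNA sensing to interferon induction, 11 of 16 were tested and none was called by edgeR in either model. The most abundant were Tbk1, the kinase that activates IRF3, Trim25, a ubiquitin ligase that acts on RIG-I, and Irf2, which antagonizes IRF1. Their log2 fold changes were -0.12, 0.05 and -0.39, and their groups overlapped. For 2 of the 11 (18.2%), Ikbke and Irf3, CPM was higher in all positive libraries, beside 8.29% of all tested genes. It was lower in all of them for none, beside 9.02% of all tested genes. The log2 fold changes of Ikbke and Irf3 were 0.39 and 0.36, with edgeR adjusted p at 0.605 and 0.655.

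The transcription factors of the response had overlapping levels in both fractions. Irf1, induced by interferon gamma, was at 34.9, 32.5 and 32.0 CPM in negative and 33.9, 22.6 and 46.8 in positive libraries. Stat2 was at 17.7, 18.1 and 16.6 against 22.6, 19.6 and 14.1 CPM, and its partner Irf9 at 13.6, 18.2 and 14.8 against 8.95, 21.0 and 11.9. For each of these genes the positive libraries lay on both sides of the negative ones, and the wider spread was in the positive group. The edgeR log2 fold changes were 0.06 (95% interval -0.54 to 0.66) for Irf1, 0.11 (-0.50 to 0.72) for Stat2 and -0.15 (-0.94 to 0.63) for Irf9. Irf7, the factor that amplifies interferon alpha production, was lower, at 2.73 to 3.84 CPM in negative and 3.65 to 6.59 in positive libraries, with overlap. Nlrc5, the transactivator of class I genes, had 1 to 12 reads per library and was not tested.

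Of the RNA and DNA sensors, 2 were well detected. Ifih1, which encodes the RNA sensor MDA5, was at 25.8, 46.1 and 36.3 CPM in negative and 29, 21.5 and 29.2 in positive libraries. It was lower in the positive fraction of mice 2 and 3 and higher in that of mouse 1, with a log2 fold change of -0.44 (95% interval -1.03 to 0.15; edgeR adjusted p = 0.594). Ddx58 was at 19.6, 21.7 and 19.7 against 19.4, 26.6 and 12.2 CPM, and its groups overlapped. Zbp1, a sensor of left-handed nucleic acid that triggers necroptosis, had 3 to 8 reads in negative and 0 to 2 in positive libraries and was not tested.

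The IFIT genes encode proteins that bind viral RNA at its 5′ end. Ifit1 was at 19.8, 14.2 and 19.3 CPM in negative and 26.5, 12.2 and 10.8 in positive libraries. Ifit3 was at 6.21, 2.69 and 7.99 against 5.40, 2.22 and 5.56 CPM. Ifit2 was at 2.91, 0.960 and 3.12 against 4.90, 0.949 and 0.794 CPM. The groups overlapped for all 3, and their log2 fold changes were -0.11, -0.36 and -0.08. Ifit1 and Ifit2 were higher in the positive library of mouse 1 and lower in that of mouse 3.

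The OAS genes encode enzymes that make 2′-5′ oligoadenylate when they bind double-stranded RNA, and related proteins without that activity. Oasl2 was at 34.9, 32.5 and 46.4 CPM in negative and 49.0, 44.9 and 41.0 in positive libraries. It was higher in the positive fraction of mice 1 and 2 and lower in that of mouse 3 (log2 fold change 0.25, 95% interval -0.24 to 0.73). Oasl1, which represses translation of IRF7, was at 7.57, 9.80 and 15.4 against 11.3, 9.81 and 31.8 CPM. Its fold change of 0.69 had an edgeR adjusted p of 0.630, and mouse 3 was highest in both fractions. Oas2 was at 2.91, 3.07 and 1.56 against 1.35, 4.59 and 2.06 CPM, with a log2 fold change of 0.09. Oas1a had 2 to 12 reads and Oas3 0 to 3 reads per library.

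By counted reads, the 2 members of the ISG15 system lay near opposite ends of the range. ISG15 is a ubiquitin-like protein attached to other proteins, and USP18 removes it and also restrains signalling at the type I receptor. Usp18 was at 102, 91.0 and 117 CPM in negative and 126, 92.9 and 136 in positive libraries. It was higher in the positive library of every mouse, but the groups overlapped, and the log2 fold change of 0.19 (95% interval -0.23 to 0.61) had an edgeR adjusted p of 0.757. Isg15 had 1, 4 and 1 reads in negative and 3, 1 and 0 in positive libraries. Apart from the 4 reads in the negative library of mouse 2, these counts are at or under the limit that a count of 0 allows, so no fold is given. Reads aligned to several places are not in these counts. Usp18 lies at chr6:121245906-121270917 and Isg15 at chr4:156199424-156200818 (GRCm38), and 4.44% of the exon bases of Usp18 overlap another gene on the opposite strand.

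Among the interferon-induced GTPases, Mx2, whose family blocks viral nucleocapsids, was at 11.8, 13.3 and 11.7 CPM in negative and 16.7, 14.2 and 14.0 in positive libraries. All positive libraries were above all negative ones. The log2 fold change was 0.29 (95% interval -0.34 to 0.92) with an edgeR adjusted p of 0.757, so the model did not call this separation. The annotation lists mouse Mx2 as a polymorphic pseudogene. Mx1 had 2 to 19 reads per library and Gbp3 0 to 10, and neither was tested.

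Gbp2, which encodes a guanylate-binding protein induced by interferon gamma, had 24, 24 and 10 reads in negative and 0, 6 and 9 in positive libraries. These reads were 4.66, 4.61 and 1.95 CPM against 0, 0.949 and 1.43 CPM. All positive libraries lay below all negative ones. The log2 fold change was -2.19 ± 0.862 (SE), with an edgeR adjusted p of 0.405, and -2.30 with the mouse as a block, with an adjusted p of 0.212. Without mouse 1, whose positive library held no Gbp2 read, the blocked value was -1.39 (edgeR adjusted p = 0.401), and without mouse 3 it was -3.51 (edgeR adjusted p = 0.433). The whole family was then looked at, a choice made after the values of Gbp2 were seen. The 8 Gbp genes summed to 19.8, 20.7 and 9.36 CPM in negative and 3.21, 5.22 and 3.81 in positive libraries, again with no overlap. Of the 3 that were tested, Gbp7 (-1.93) and Gbp9 (-2.34) were also below 0, and edgeR called none in either model. The gene of CD45, Ptprc, had 159, 264 and 25 reads in negative libraries, against 13, 63 and 18 in positive ones. The leukocyte markers without Lyz2 were at 89.8, 123 and 13.5 CPM against 24.7, 46.7 and 16.7. As with the Gbp sum, mice 1 and 2 had the high negative libraries and mouse 3 a lower one. In mouse 3, however, the positive library had the lower Gbp sum but the higher leukocyte sum. Alveolar type 2 markers were also lower in all positive libraries. The part of these cell types in the Gbp values was not tested.

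The other effectors overlapped between fractions except for Xaf1. Rsad2, which encodes the antiviral enzyme viperin, was at 15.1, 13.1 and 26.1 CPM in negative and 11.7, 14.6 and 27.8 in positive libraries. Mouse 3 was highest in both fractions, and the log2 fold change was -0.01 (95% interval -0.86 to 0.85). Rtp4 was at 12.4, 21.1 and 17.5 against 17.2, 26.3 and 14.3 CPM, and mouse 2 was highest in both fractions. Cxcl10, a chemokine that attracts T cells, was at 14.0, 7.11 and 10.7 against 12.5, 3.48 and 12.4 CPM, and mouse 2 was lowest in both. Xaf1, linked to apoptosis, is named because its groups did not overlap. It was at 7.18, 6.53 and 6.82 CPM in negative and 8.78, 14.7 and 8.73 in positive libraries, with a log2 fold change of 0.65 (95% interval -0.16 to 1.46) and an edgeR adjusted p of 0.566. Trim30a (-0.42) and Ifi44 (0.64) had groups that overlapped. Bst2, which encodes the membrane protein tetherin that holds back budding virions, had 3 to 19 reads per library.

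Summed over the 29 interferon-stimulated members, CPM was 378, 382 and 418 in negative and 435, 372 and 434 in positive libraries. The means were 392 ± 22.1 and 414 ± 35.9 (SD, n = 3 each), and the groups overlapped. The 9 genes of class I presentation summed to 514, 510 and 344 CPM in negative and 518, 283 and 293 in positive libraries, 456 ± 96.9 against 365 ± 133, also with overlap. B2m was the largest term of that sum in 5 of the 6 libraries.

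**Figure D3:**
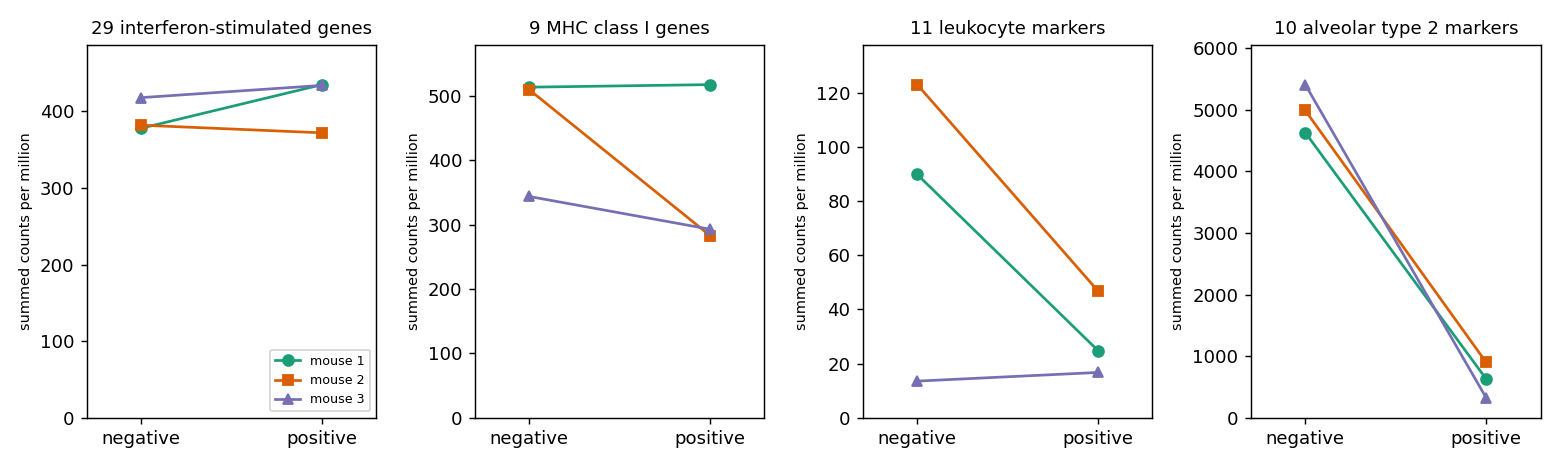
Summed CPM per library for the 29 interferon-stimulated genes, the 9 MHC class I genes, 11 leukocyte markers without Lyz2 and 10 alveolar type 2 markers; lines join both fractions of a mouse. The interferon-stimulated sum stays between 372 and 435, while the alveolar type 2 sum is lower in every positive library.

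B2m, the light chain of all class I molecules (chr2:122147686-122153083, GRCm38), was lower in the positive library of mice 2 and 3 and nearly level in mouse 1. It had 1466, 1511 and 865 reads in negative and 1655, 780 and 525 in positive libraries, which is 284, 290 and 169 CPM against 280, 123 and 83.4 CPM. The groups overlapped, because the positive library of mouse 1 was as high as the negative ones. The log2 differences within mice were -0.03, -1.23 and -1.01. In edgeR without a mouse term the log2 fold change was -0.61 ± 0.448 (SE), with an adjusted p of 0.671. With the mouse as a block it fell by 0.76 on the log2 scale (SE 0.194, 95% interval -1.17 to -0.35), with an edgeR adjusted p of 0.041. DESeq2 with the block gave an adjusted p of 0.0269.

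The B2m call was not kept in every fit with a mouse left out. Each such fit held fewer libraries, and the fold change stayed below 0 in all of them. Without mouse 1, whose positive library lay far from the rest, the blocked edgeR log2 fold change was -1.15, with an adjusted p of 4.75e-06. Without mouse 2 it was -0.51, with an edgeR adjusted p of 0.218, and without mouse 3 it was -0.63, with an edgeR adjusted p of 0.572. The difference between mice was also tested, with the mouse terms of the blocked model, a test added after the values were seen. It called 1 of 28 members, B2m (edgeR adjusted p = 0.0146), beside 2.60% of all tested genes (342 of 13175). In both fractions mouse 3 had the lowest level.

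The heavy chains were not called in either edgeR model. H2-K1 was at 107, 103 and 86.0 CPM in negative and 114, 73.3 and 96.1 in positive libraries, and H2-D1 at 95.4, 93.5 and 69.2 against 91.7, 55.2 and 87.5. Both were lower in the positive library of mouse 2 and higher in that of mouse 3, and the groups overlapped. The edgeR log2 fold change was -0.07 (95% interval -0.51 to 0.37) for H2-K1, with an adjusted p of 0.927. That of H2-D1 was -0.14 (95% interval -0.64 to 0.36), with an edgeR adjusted p of 0.861. Reads of B2m per read of H2-K1 and H2-D1 together were 1.4, 1.47 and 1.09 in negative and 1.36, 0.961 and 0.454 in positive libraries. The ratio was lower in the positive library of each mouse, by little in mouse 1. The chains are close paralogs of other class I genes, and reads that fit several of them are in neither count.

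Other measures were set beside the B2m values. The leukocyte marker sum without Lyz2 was lower in the positive library of mice 1 and 2 and higher in that of mouse 3, while B2m was lower in mice 2 and 3. Alveolar type 2 markers were lower in the positive library of all 3 mice, from 4630, 4990 and 5410 to 628, 897 and 321 CPM. B2m is short, with 0.86 kilobases of exon. The 573 tested genes of up to 1 kilobase had median log2 differences of -0.11, -0.02 and -0.13 in mice 1, 2 and 3, a comparison added after B2m was seen. The part of cell mixture in the B2m values was not tested.

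**Figure D4:**
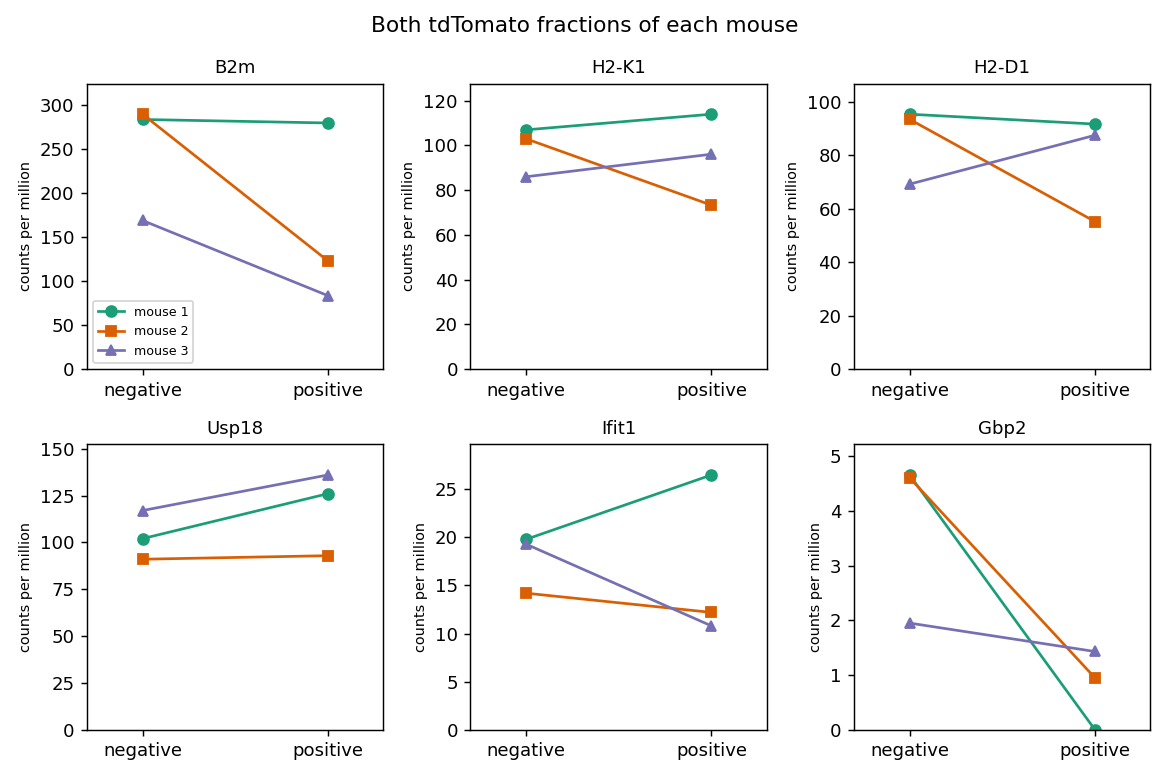
CPM of B2m, H2-K1, H2-D1, Usp18, Ifit1 and Gbp2 in both fractions; each line joins the libraries of 1 mouse and every axis starts at 0. B2m is level in mouse 1 and lower in the positive fraction of mice 2 and 3, while H2-K1 and H2-D1 are higher there in mouse 3.

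The peptide-loading genes were low to moderate. Tapbp, which encodes tapasin, was at 14.4, 11.7 and 12.3 CPM in negative and 19.3, 17.1 and 12.4 in positive libraries, with a log2 fold change of 0.34 and an edgeR adjusted p of 0.718. Exons of other genes cover 29% of the exon bases of Tapbp. Tap2 was at 5.04, 4.03 and 1.56 against 6.08, 5.06 and 3.33 CPM, higher in the positive library of every mouse. Its partner in the transporter, Tap1, was at 4.46, 3.27 and 2.34 against 0.507, 2.37 and 2.86 CPM, and the positive library of mouse 1 was the lowest, with 3 reads. The groups overlapped for all 3 genes, and the log2 fold changes of Tap2 and Tap1 were 0.44 and -0.80.

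The immunoproteasome subunits replace standard catalytic subunits of the proteasome under interferon. Psmb8 had 3, 8 and 4 reads in negative and 2, 12 and 17 in positive libraries, and Psmb9 had 4, 4 and 6 against 3, 16 and 20. Psmb10 had 6, 10 and 11 reads against 35, 15 and 9. The 3 genes together had 13, 22 and 21 reads against 40, 43 and 46, or 2.52, 4.23 and 4.09 CPM against 6.76, 6.80 and 7.30. The groups of this sum did not overlap, but the gene with the largest difference was Psmb10 in mouse 1 and Psmb9 in mouse 2, and in mouse 3 Psmb8 and Psmb9 were higher while Psmb10 was lower. Only Psmb10 passed the filter, with a log2 fold change of 0.88 and an edgeR adjusted p of 0.674.

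Per kilobase of exon the standard subunits were above the immunoproteasome ones. Psmb5 was at 11.6 ± 5.43 CPM per kilobase in negative and 11.8 ± 2.87 in positive libraries, and its counterpart Psmb8 at 0.286 ± 0.149 and 0.487 ± 0.355. Psmb6 was at 12.7 ± 7.41 and 19.1 ± 8.03, and its counterpart Psmb9 at 0.247 ± 0.0628 and 0.566 ± 0.381. Psmb7 was at 3.85 ± 0.478 and 3.86 ± 1.19, and its counterpart Psmb10 at 1.02 ± 0.301 and 1.90 ± 1.39. In CPM the 3 standard subunits summed to 69.5, 40.3 and 32.6 in negative and 74.0, 41.1 and 63.2 in positive libraries, with overlap. All 8 standard proteasome genes listed were tested and edgeR called none in either model.

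Among 56 other interferon-stimulated genes, 37 were tested. The edgeR model without a mouse term called none, and the blocked model called 1 higher and 1 lower, 5.41% of the list beside 3.15% of all tested genes. At an unadjusted p under 0.05 without the block, edgeR counted 8 of the 37 (21.6%), beside 10.7% of all tested genes. Their median log2 fold change was -0.27, beside 0.03 for all genes. The sum of all 56 went the other way, with no overlap between the groups. It was 880, 873 and 811 CPM in negative and 908, 971 and 942 in positive libraries. Its largest term, Lgals3bp, averaged 196 ± 13.7 and 284 ± 64.2 CPM (SD), beside 855 ± 38.2 and 940 ± 31.5 for the sum. Of the 37 tested genes, 15 had log2 fold changes above 0 and 22 below. The sum therefore does not give the direction of most genes in the list. The groups did not overlap for 8 of the 37, 4 higher and 4 lower (10.8% each), beside 8.29% and 9.02% of all tested genes. Ifitm3, which blocks virus entry from endosomes, was at 52.6, 30.5 and 27.3 CPM in negative and 94.7, 50.5 and 44.8 in positive libraries. The groups overlapped, but it was higher in the positive library of each mouse, by 0.76 on the log2 scale with the block (edgeR adjusted p = 0.037, against 0.436 without it). Samhd1, which degrades deoxynucleotides, was at 24.3, 32.7 and 22.8 against 7.09, 19.3 and 11 CPM, and the groups did not overlap. With the block it fell by 1.17 on the log2 scale, with an edgeR adjusted p of 0.0376, against 0.309 without it. Both calls were lost when any 1 mouse was left out, an alternative added after the calls were seen. The blocked edgeR adjusted p was then 0.0527 to 0.373 for Ifitm3 and 0.0524 to 0.373 for Samhd1. The blocked log2 fold changes kept their sign, at 0.7 to 0.79 for Ifitm3 and -1.4 to -0.92 for Samhd1. Each such fit held fewer mice, so a lost call does not show that the difference rested on 1 animal. Samhd1 and the alveolar type 2 marker sum were lower in the positive library of all 3 mice, and the leukocyte marker sum without Lyz2 was lower in mice 1 and 2 only. Their part in the Samhd1 values was not tested.

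The most abundant of these other genes were Lgals3bp, Psme1 and Ifitm3. Lgals3bp, a secreted glycoprotein gene, was at 210, 182 and 196 CPM in negative and 211, 328 and 314 in positive libraries (log2 fold change 0.54, edgeR adjusted p = 0.332). Psme1, which encodes a proteasome activator, was at 69.8, 51.7 and 49.1 against 78.5, 67.7 and 71.0 CPM. Samd9l, chosen after its values were seen, was at 52.4, 58.0 and 59.9 against 36.8, 36.1 and 47.5 CPM, lower in all positive libraries, with a log2 fold change of -0.50 and an edgeR adjusted p of 0.420. Neither edgeR model called Lgals3bp, Psme1 or Samd9l.

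Of 21 other genes of class I presentation, 11 were tested and edgeR called none in either model; their median log2 fold change was 0.07. The genes of endoplasmic reticulum proteins Pdia3 and Canx, and the class I-like gene Mr1, which presents vitamin B metabolites, were the most abundant. Pdia3 was at 295, 476 and 337 CPM in negative and 334, 448 and 381 in positive libraries. Canx was at 317, 358 and 300 against 358, 247 and 254 CPM, and Mr1 at 142, 150 and 153 against 148, 172 and 172 CPM. The groups of all 3 overlapped, and their log2 fold changes were 0.07, -0.18 and 0.14. The groups did not overlap for 2 of the 11, H2-Q6 (lower, log2 fold change -1.72, edgeR adjusted p = 0.333) and Tapbpl (higher, 0.91, edgeR adjusted p = 0.545). With 1 gene higher and 1 lower, each share was 9.09%, close to the 8.29% and 9.02% of all tested genes.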

How the data were processed

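The submitters' processing notes name the tools STAR 2.4.2a, cutadapt 1.7.1, HTSeq, DESeq2 and FastQC, with GRCm38.p4 and mm10 as builds. Each library was deposited as a table of unnormalized counts by gene symbol. Per the labels' protocols, Trizol-extracted RNA was amplified (Ovation RNA-Seq System V2) before TruSeq Nano library preparation. The strand setting of HTSeq is not given in the sources used here, so overlapping genes cannot be told apart. Of all counted rows, reads in no gene were 41.0% to 49.4%, ambiguous reads 1.31% to 1.99% and reads aligned to several places 8.26% to 12.0%. None of these rows entered a library size or a test.

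CPM with TMM factors, log2 fold changes and two-sided p-values came from the quasi-likelihood test of edgeR 4.0.16 (R 4.3.3, robust dispersions, filterByExpr count minimum 10), with Benjamini-Hochberg adjustment over 13175 genes. Log2 differences within mice used a prior count of 2. A limit of 3 counts was used for a count of 0, which allows for counting error alone: the reads were amplified and carry no molecular identifiers, so they are not independent. The main model had no mouse term. The labels give 1 individual for both libraries of a number, and deviations of those libraries from their group means correlated at 0.263, 0.254 and 0.346 across genes, so the mouse as a block was also fitted. Alternatives were other normalizations and filters, DESeq2 1.42.0, limma-voom (limma 3.58.1) and leaving out libraries or mice. Scripts were tested on simulated data.

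The members and lists were chosen with earlier results of these data known. Values per library are given for members called in either edgeR model and for up to 3 of highest mean CPM in each role group or pathway list, with values for members whose groups did not overlap; other values named were chosen after they were seen. Positions and exon lengths come from GENCODE M21 (GRCm38), which held 96.9% of tested genes, and promoters from RefSeq (GRCm38.p6).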

Additional observations from a re-analysis of the deposited data

How the results depend on the processing

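Of the 28 tested members, 27 were not called in any of the 21 alternatives that gave them a value (18 for Ifit2); the exception was B2m. The count of members called, 0, became 1 with the replicate block and 1 with DESeq2 and the replicate block, and ranged from 0 to 1 when libraries or mice were left out. The count of all genes called, 82, became 415 with the replicate block, 413 with no filter, 245 with DESeq2 and 464 with DESeq2 and the replicate block. It ranged from 22 to 633 when libraries or mice were left out, the highest with the block and without mouse 1, and the lowest without the block and without mouse 1. Under the block no other member changed its call.

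The median log2 fold change of the members, 0.03, became 0.28 when libraries were scaled by size only. That scaling moved the median of all tested genes from 0.029 to 0.286, and the split of called genes from 6 higher and 76 lower to 22 higher and 54 lower. When libraries or mice were left out the median ranged from -0.07 to 0.15. Over all alternatives 13 members kept 1 sign and 15 changed sign, none of the latter called, and the counts were 13 and 15 also without the scaling by size only. The cause was not tested.

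With 3 mice, and reads from amplified RNA, the precision is limited for low genes. Of 38 members, 10 had too few reads to test. In edgeR without a mouse term, 16 of the 28 tested had intervals that reach 2-fold or more. Intervals inside 2-fold made up 42.9% of the tested members, beside 42.6% of all tested genes.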
